A study of Mus musculus with 64 samples.

Results

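The genes described here are a list of 34 genes typical of striatal medium spiny neurons. They were chosen by name, from what is known of this cell type, and not from a measured value. Earlier results of these data were known when the list was chosen. A row under the gene's own name was found for 33 of the 34, of 46686 gene names in all. Gpr52, which encodes an orphan receptor, was the exception and was not analysed here. RNA sequencing was done on dissected nucleus accumbens (NAc) and prefrontal cortex (PFCx) of adult male C57BL/6N mice (8 to 10 weeks old), 2 h after a single intraperitoneal injection. The drugs were haloperidol at 1 mg/kg, risperidone at 0.5 mg/kg, mianserin at 20 mg/kg, venlafaxine at 16 mg/kg, methamphetamine at 2 mg/kg and ketamine at 20 mg/kg, with 4 libraries per drug and tissue. Saline was given to the controls, with 8 libraries per tissue labelled as saline set I (4 libraries) and saline set II (4 libraries). Haloperidol and risperidone were dissolved in saline with a drop of hydrochloric acid, and the methods do not say that the control injections held the acid. The labels name no genetic change. Neither the number of mice in a library nor any sharing of mice between the tissues is given in the labels, so the p-values measure the spread between libraries.

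Medium spiny neurons are the GABA-releasing projection neurons that make up most of the striatum, of which the NAc is the ventral part. Dopamine reaches them through D1 receptors, which raise cyclic AMP (cAMP) by way of the G protein alpha subunit olf and adenylyl cyclase 5, or through D2 receptors, which lower it. Protein kinase A then phosphorylates DARPP-32, the product of Ppp1r1b, and phosphodiesterases remove the cAMP. The prefrontal cortex holds few cells of this type, so a list of their genes also reports how cleanly the 2 tissues were separated with needles under the microscope.

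The unit throughout was FPKM, a count of sequenced fragments scaled to transcript length and to the size of the library, summed over the transcripts of a gene. The files give no read counts, and the aligned depth estimated from the coverage column was 1.52 to 3.26 gigabases per library (median 2.39). Differences were computed on log2(FPKM + 1), so low genes are understated, and were tested with limma (moderated t) with Benjamini-Hochberg adjustment over the 36989 genes whose mean FPKM reached 0.1 in at least one of the tissues. A gene was called at an adjusted p under 0.05. All 33 members passed this filter. The NAc libraries fell into 2 groups by the number of transcripts above 0, 85287 to 87827 in saline set I, haloperidol, risperidone and methamphetamine, and 107099 to 110556 in saline set II, mianserin, venlafaxine and ketamine. No such split was seen in the PFCx. Each drug was therefore compared with all 8 saline libraries and with the 4 saline libraries of its own set, and both values are given. The labels name a set for saline only. The set of each drug was read from the transcript numbers in the NAc and carried over to the PFCx, where nothing in these numbers bears on it. All drugs of a tissue share the saline libraries, so their differences are not independent.

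Promoter sequences of 3 members are shown for reference: Gpr6 and Lrrc10b, the members called after an antipsychotic drug in the NAc with both choices of saline, and Rarb, a retinoid receptor whose promoter holds a known response element. No result below rests on them. Each is the 250 bases before the RefSeq start (build GRCm38.p6), 5′ to 3′ on the gene's strand, which is the minus strand for all 3. Capitals mark a motif, where one of the motifs searched was found on either strand.
Gpr6, chr10:41072291-41072540: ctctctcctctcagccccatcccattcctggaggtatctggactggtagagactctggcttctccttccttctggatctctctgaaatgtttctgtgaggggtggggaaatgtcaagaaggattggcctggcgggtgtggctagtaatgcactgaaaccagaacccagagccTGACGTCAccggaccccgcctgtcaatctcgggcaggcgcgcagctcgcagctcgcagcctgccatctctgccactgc
Rarb, chr14:16575477-16575726: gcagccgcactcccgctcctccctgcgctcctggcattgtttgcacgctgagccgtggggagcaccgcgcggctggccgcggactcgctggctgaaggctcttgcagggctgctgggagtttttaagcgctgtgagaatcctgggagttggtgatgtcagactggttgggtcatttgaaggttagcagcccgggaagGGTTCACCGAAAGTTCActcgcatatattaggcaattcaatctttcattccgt
Lrrc10b, chr19:10457448-10457697: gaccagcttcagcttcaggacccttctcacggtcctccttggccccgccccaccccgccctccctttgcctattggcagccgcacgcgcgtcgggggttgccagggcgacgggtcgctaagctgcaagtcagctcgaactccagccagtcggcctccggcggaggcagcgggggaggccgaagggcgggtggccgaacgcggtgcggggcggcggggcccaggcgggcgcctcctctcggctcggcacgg

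The motif in Gpr6 is the full cAMP response element, TGACGTCA, 78 to 71 bases before the start. Gpr6 was the only one of the 23 members with a promoter window that held it. This was 1 of the 42 windows of members, against 1.79% of all 32851 windows of 300 bases. The motif in Rarb is its known retinoic acid response element, the letters GGTTCA and AGTTCA with any 5 bases between them, 53 to 37 bases before the start, through which retinoic acid receptors are known to raise Rarb itself. The letters searched are those of the Rarb element itself, so finding them in Rarb was no test. They occurred in 2 of the 32851 windows (0.00609%). Lrrc10b held neither, which says only that these letters are not in this window. Binding was not measured.

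The first comparison was between the tissues after saline. Of the 33 members, 31 were higher in the NAc, 1 was lower and 1 was not called, whereas 9.23% of all genes tested were higher in the NAc and 39.4% were lower. The members' median difference was 1.76 on the log2 scale and that of all genes was -0.10. With the filter at a mean FPKM of 1, the higher calls made up 33.91% of all calls, against 18.97% over all tested genes. The NAc libraries of saline set I, which had fewer transcripts above 0 than the other saline libraries, enter these shares. The shares are not given by saline set, and the part of this split in them was not tested. In bulk tissue, fewer cells of a type and less RNA per cell cannot be told apart.

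The genes of the cAMP pathway were all higher in the NAc (8 of 8 members). Ppp1r1b, whose phosphorylated product inhibits protein phosphatase 1, ran from 113 to 190 FPKM (median 168) in the 8 NAc saline libraries and from 5.68 to 22.1 FPKM (median 7.50) in the PFCx. The ranges were far apart, and the log2 difference of 4.11 ± 0.18 (SE, adjusted p = 4.0e-26) was the largest of the list. Adcy5, the adenylyl cyclase of striatal neurons, was at 65.7 ± 6.65 FPKM in the NAc, against 9.48 ± 1.47 in the PFCx (SD, n = 8 each). Gnal, which encodes the alpha subunit olf, had the lowest p of the list, with 47.0 to 54.9 FPKM (median 51.0) against 10.5 to 14.8 (median 11.5) and a log2 difference of 2.04 ± 0.05 (SE, adjusted p = 4.7e-36). Its partner Gng7, a G protein gamma subunit, differed by 3.10. The 3 phosphodiesterase genes stood close together, at 2.89 for Pde10a, 2.72 for Pde1b and 2.45 for Pde7b. Arpp21, which encodes a substrate of protein kinase A, was the most abundant member in both tissues, at 193 ± 19.6 FPKM in the NAc and 102 ± 6.01 in the PFCx (SD, n = 8 each), and its difference of 0.91 was the smallest of the pathway.

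The 3 members of the channel, synapse and cytoskeleton group were also higher, with a group median of 3.503, against 2.70 for the cAMP pathway. Scn4b, the beta 4 subunit of voltage-gated sodium channels, ran from 49.7 to 65.9 FPKM (median 57.5) in the NAc and from 1.46 to 10.5 (median 1.95) in the PFCx, a log2 difference of 4.03 ± 0.20 (SE, adjusted p = 3.3e-23). Syndig1l, a relative of a regulator of AMPA receptor synapses, ran from 13.7 to 17.4 FPKM (median 15.7) in the NAc and from 0.13 to 2.58 (median 0.298) in the PFCx, a log2 difference of 3.503 ± 0.15 (SE, adjusted p = 3.0e-26). In both genes the highest PFCx library lay below the lowest NAc library. Actn2, an actin cross-linker of the postsynaptic side, differed by 1.35.

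The 3 receptors were higher as well. Gpr6, an orphan receptor that raises cAMP and marks medium spiny neurons with D2 receptors, differed by 3.26, from 0.423 ± 0.361 FPKM in the PFCx to 12.3 ± 1.14 in the NAc (SD, n = 8 each). Cd4, best known as a T-cell coreceptor, differed by 1.91, with 5.15 ± 1.08 against 0.654 ± 0.384 FPKM, and Gpr149, another orphan receptor, by 1.28. Both Ras regulators were higher, Rasd2 (Rhes, a small GTPase of the striatum) by 2.62 and Rasgrp2 (an exchange factor for Rap and Ras) by 2.43. Of the other genes, Lrrc10b, a leucine-rich repeat gene, differed by 3.00, Tmem158 by 1.74, Sh3rf2, an SH3-domain ubiquitin ligase, by 1.64, and Slc35d3, of the nucleotide sugar transporter family, by 1.60. Ptpn7, a tyrosine phosphatase of blood cells, was called at a low level, with 0.520 to 1.07 FPKM (median 0.711) in the NAc and 0.262 to 0.575 (median 0.440) in the PFCx, a difference of 0.27 (adjusted p = 1.0e-05) with ranges that overlapped.

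Transcriptional regulators formed the largest group and the only one with exceptions. Of 12 members, 10 were higher in the NAc. The retinoid receptors led, Rarb by 2.59 (13.4 ± 1.36 against 1.40 ± 0.417 FPKM, SD, n = 8 each) and Rxrg by 2.33. Six3, which is needed for D2-type neurons, followed by 1.76, the homeobox gene Dlx6 by 1.58, Isl1, which specifies D1-type neurons, by 1.497, Meis2 by 1.38, Dlx5 by 1.25 and Foxp1 by 1.05. Dlx6os1, the long noncoding RNA opposite Dlx6, differed by 0.94 and Zfp503 (Nolz1) by 0.47. Ebf1, a factor of developing D1-type neurons, ran from 0.799 to 1.89 FPKM (median 1.43) in the NAc and from 0.685 to 1.87 (median 0.998) in the PFCx, a difference of 0.20 ± 0.09 (SE) that missed the threshold (adjusted p = 0.065). Eya1, a coactivator with phosphatase activity, was the only member lower in the NAc, with 0.634 to 1.84 FPKM (median 0.904) against 1.14 to 2.67 (median 1.41), a difference of -0.37 ± 0.09 (SE, adjusted p = 0.00041). Both sets of ranges overlapped. Neither value held across the saline sets: Ebf1 was -0.06 within set I and 0.45 within set II, and Eya1 was -0.00 within set II (adjusted p = 0.99).

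**Figure D1:**
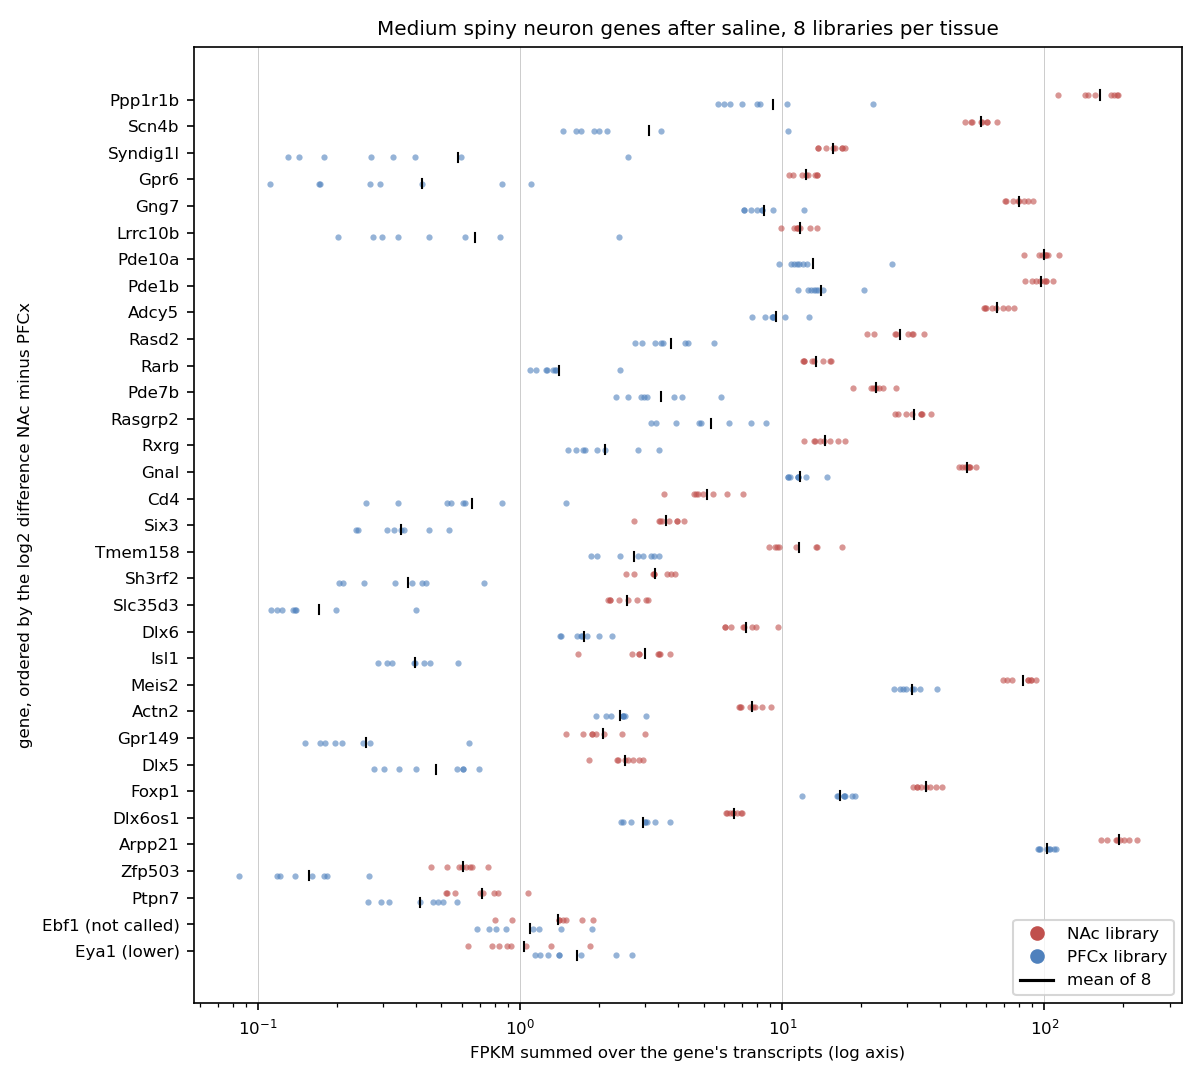
FPKM (log axis) of 33 medium spiny neuron genes in 8 NAc and 8 PFCx saline libraries, 1 point per library and a tick at each mean, genes in the order of their difference. The points of 30 genes do not overlap between the tissues, and Ptpn7, Ebf1 and Eya1 overlap. The same count over all genes is not given.

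The ranges of the 2 tissues did not overlap after saline for 30 of the 33 members, and not over all 64 libraries for 29. The share of all genes that separated in this way is not given, so these counts only describe the members. The other genes of the same neurons, a list of 20 receptor, peptide and signalling genes, moved alike: 18 were higher in the NAc and 2 were lower, with a median of 1.40. Among the highest were Penk, which encodes enkephalin (4.88), Adora2a, an adenosine receptor (3.94), and Tac1, which encodes substance P (3.78). The lower were Cnr1, the cannabinoid receptor (-1.11), and Prkaca, a catalytic subunit of protein kinase A (-0.25), both of which cortical neurons also express. The dopamine receptors that define the cell type had 27.4 to 36.8 FPKM (Drd1) and 11.97 to 18.3 FPKM (Drd2) in the NAc saline libraries, and 1.98 to 6.01 and 0.184 to 1.66 FPKM in the PFCx. Markers of cortical projection neurons went the other way (10 of 11 lower in the NAc, 1 higher), and the vesicular glutamate transporter gene Slc17a7 still reached 15.4 to 53.6 FPKM in the NAc saline libraries. All 10 oligodendrocyte markers were higher in the NAc, as were 6 of 7 markers of cholinergic interneurons. Of the remaining lists, astrocytes had 1 higher and 4 lower of 10, microglia 4 and 1 of 10, endothelial cells 1 and 4 of 10, GABA interneurons 3 and 3 of 8, and septal and neighbouring nuclei 3 and 6 of 9. No gene of these lists was at 0 in all libraries, and their part in the members' differences was not tested.

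A few PFCx libraries stood apart from the rest in the level of the list. The mean of log2(FPKM + 1) over the 33 members was 3.87 ± 0.08 in the NAc saline libraries and 1.93 ± 0.19 in the PFCx saline libraries (SD, n = 8 each), and over all libraries it ran from 3.59 to 4.02 and from 1.74 to 2.33. In the PFCx, 27 libraries lay between 1.74 and 1.99 (median 1.83) and 5 above 2, a line drawn after the values were seen. These 5 were replicate 4 of saline set II (2.33), replicate 3 of risperidone (2.24), replicate 1 of ketamine (2.14), replicate 4 of saline set I (2.06) and replicate 3 of ketamine (2.05). They came from 4 groups, controls included. Without them the PFCx range was narrower than that of the NAc.

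Since the mean over the list marked these libraries, the values of its members in them are a description. Of the 15 members with a tissue difference above 2, 14 exceeded all 27 other PFCx libraries in replicate 4 of saline set II, 12 in replicate 3 of risperidone, 11 in replicate 1 of ketamine, 8 in replicate 3 of ketamine and 4 in replicate 4 of saline set I. Of the other 18 members, 8, 4, 3, 3 and 2 did so in the same order. The share of all genes that did so in each library is not given, so the excess is not shown to be particular to the list. Scn4b was 10.5, 7.85, 4.58, 3.52 and 3.45 FPKM in these libraries in the same order, against 1.11 to 3.07 in the other 27. Ppp1r1b reached 22.1 FPKM in the first, against 5.68 to 11.2 in the other 27. As a median over the 15 members, the excess over the other PFCx libraries was 10.9%, 8.27%, 5.802%, 4.66% and 2.74% of the gap to the NAc. Arpp21, which is abundant in cortex itself, was at 87.9 to 110 FPKM in the 5 libraries and at 80.0 to 108 FPKM (median 91.9) in the other 27. Without these 5 libraries the tissue comparison again gave 31 higher and 1 lower, with Ppp1r1b and Scn4b at 4.37 each and Syndig1l at 3.74.

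**Figure D2:**
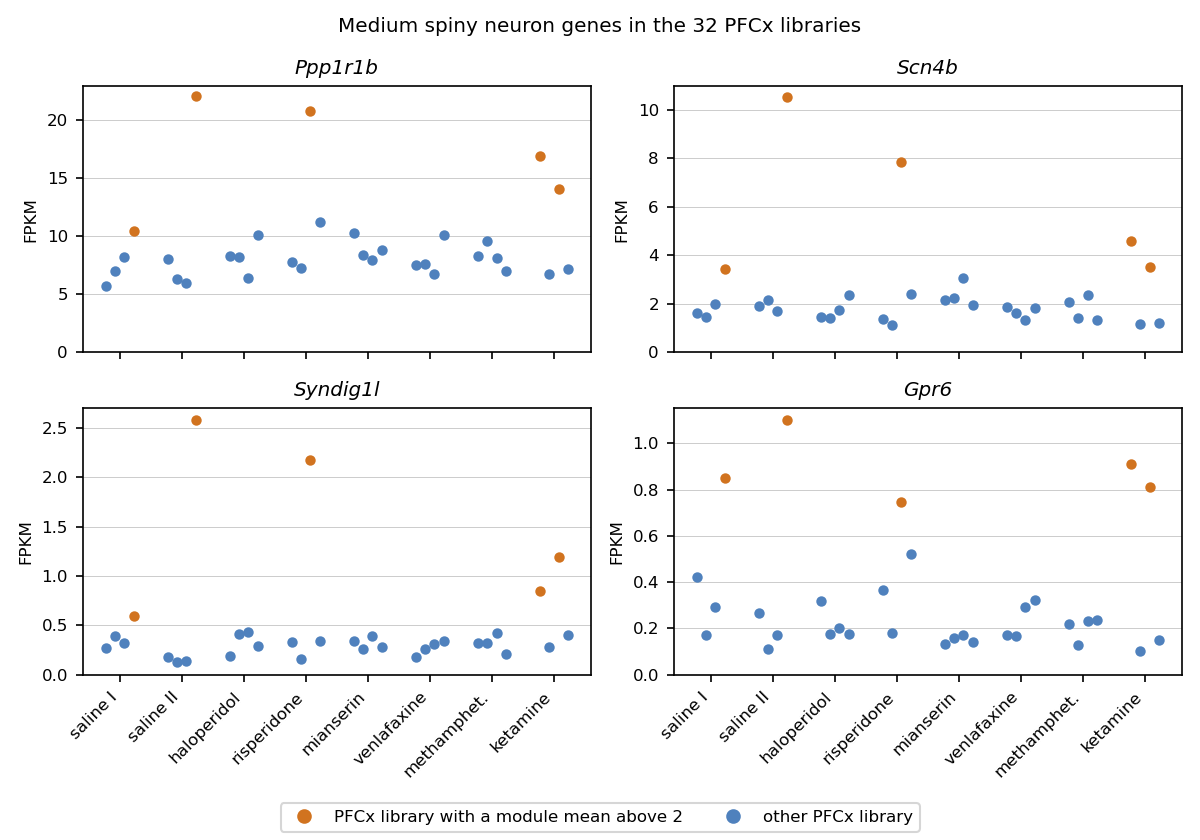
FPKM of Ppp1r1b, Scn4b, Syndig1l and Gpr6 in the 32 PFCx libraries by group, 1 point per library, with the 5 libraries whose mean over the list is above 2 in orange. Replicate 4 of saline set II is the highest point for each of the 4 genes.

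The second comparison was between each drug and saline, which asks whether a single dose changes these genes within 2 h. Few members did. With all 8 saline libraries, 5 pairs of a member and a drug were called in the NAc and 2 in the PFCx. After haloperidol 1 of 33 members was lower in the NAc (0.195% of all genes were), after risperidone 2 were higher (0.443%), after mianserin 1 was lower (0.411%) and after ketamine 1 was lower (0.535%). In the PFCx 1 member was lower after risperidone (0.227%) and 1 after mianserin (0.33%). These shares are of 1 or 2 genes, so no more than the single genes can be read from them. By limma, none was called after venlafaxine or methamphetamine in the NAc (675 and 72 genes were, 1.82% and 0.195%), where 4 and 9 of 33 members had an unadjusted p under 0.05, as did 21.6% and 13.3% of all genes. None was called after haloperidol, venlafaxine, methamphetamine or ketamine in the PFCx, where the share of all genes called was 0.162%, 0.00541%, 0.351% and 0.0162%. There 3, 4, 4 and 2 members had an unadjusted p under 0.05, beside 13.8%, 7.16%, 8.87% and 8.15% of all genes. The ordinary t of the linear model gave the same counts of 0 except for 1 member after methamphetamine in the PFCx.

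Gpr6 fell after the dopamine D2 blocker haloperidol. Its level in the NAc was 10.6 to 13.6 FPKM (median 12.4) in the 8 saline libraries and 8.57, 9.61, 9.52 and 9.85 after haloperidol. All 4 haloperidol libraries lay below all saline libraries, with a log2 difference of -0.36 ± 0.07 (SE, adjusted p = 0.0063, limma). Against saline set I alone the difference was -0.41 (adjusted p = 0.010), in a comparison where 0.027% of genes were called lower. It passed the threshold in all 32 fits that left out 1 library with all saline libraries, and in 30 of 32 with own-set saline, where it was lost without haloperidol replicate 1 or saline set I replicate 3 (adjusted p up to 0.0501). After haloperidol in the NAc, 0 of 11 cortical and 0 of 10 oligodendrocyte markers were called with either choice of saline. Slc17a7 was at 45.7 to 64.8 FPKM in these NAc libraries and at 38.4 to 53.6 in saline set I. The summed cortical markers were at 91.1 to 114 FPKM against 77.96 to 101. The summed oligodendrocyte markers were at 766 to 839 against 726 to 834. All 3 ranges overlapped those of saline set I. In saline set II, also among the 8 controls, Slc17a7 was at 15.4 to 32.6 FPKM. There the cortical sum was 56.97 to 73.4 FPKM and the oligodendrocyte sum 608 to 672. All 3 ranges after haloperidol lay above those of saline set II. The part of these cell types in the Gpr6 result was not tested.

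A similar level of Gpr6 was reached after mianserin, a tetracyclic antidepressant. The values were 8.63, 9.53, 8.61 and 9.93 FPKM, again below all saline libraries, and the difference was -0.39 ± 0.07 (SE, adjusted p = 0.0026). Against saline set II, which ran from 10.6 to 13.6 FPKM, it was -0.34 and missed the threshold (adjusted p = 0.056), with 0.103% of genes called lower. The other drugs gave means between 10.3 and 11.1 FPKM, all under the saline mean of 12.3. None of these passed, with -0.24 after methamphetamine (adjusted p = 0.18) as the furthest. The cAMP response element shown above lies in the promoter of this gene, and whether it takes part was not tested.

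Lrrc10b and Rasd2 rose after risperidone, which blocks D2 and serotonin receptors. Lrrc10b was 9.91 to 13.6 FPKM (median 11.4) after saline and 18.6, 16.9, 17.1 and 15.8 after risperidone, all above the saline libraries. The difference was 0.52 ± 0.09 (SE, adjusted p = 0.0028) with all saline libraries and 0.50 (adjusted p = 0.045) with saline set I, where 0.192% of genes were called higher. The latter call was near the threshold. It was lost in 19 of 32 fits that left out 1 library (adjusted p up to 0.16) and when the saline set II libraries were dropped from the fit, where they lend only their spread (0.50, adjusted p = 0.052). After haloperidol Lrrc10b was 13.2 to 16.9 FPKM, a difference of 0.36 that was not called (adjusted p = 0.063), and the 2 antipsychotics were not tested against each other.

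Rasd2 was 21.1 to 34.8 FPKM (median 28.6) after saline and 39.3, 38.6, 40.6 and 40.8 after risperidone, above all 8 saline libraries. The difference of 0.50 ± 0.10 (SE, adjusted p = 0.015) fell to 0.35 against saline set I (adjusted p = 0.28), since that set had a higher mean (31.2 ± 3.15 FPKM) than saline set II (25.2 ± 4.12, SD, n = 4 each). With all saline libraries the call was lost without risperidone replicate 1, 3 or 4 (adjusted p up to 0.061). With own-set saline the main Rasd2 transcript, ENSMUST00000139848, differed by 0.31 after risperidone and 0.33 after ketamine, neither called (limma, adjusted p = 0.51 and 0.38). The other drugs gave 0.11 (haloperidol), 0.15 (mianserin), -0.03 (venlafaxine) and 0.005 (methamphetamine). The rise is not shown to be particular to risperidone.

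Scn4b was lower after ketamine, an NMDA receptor blocker. The values were 39.5, 48.9, 45.7 and 52.3 FPKM, against 49.7 to 65.9 (median 57.5) after saline. The groups overlapped, and the difference was -0.29 ± 0.07 (SE, adjusted p = 0.039). It was lost with own-set saline (-0.29, adjusted p = 0.12, 0.608% of genes lower) and in 6 of 32 fits that left out 1 library: ketamine replicates 1, 2 and 3 and saline set I replicates 1, 3 and 4 (adjusted p up to 0.13).

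Other genes moved with this result. In the NAc after ketamine 26 of 33 members had a negative difference, with a median of -0.14 where all genes had 0.06. The count was 25 of 33 after haloperidol (median -0.10, all genes -0.05) and 25 of 33 after methamphetamine (median -0.05, all genes -0.05). For ketamine with own-set saline it was 27 of 33, with a median of -0.12 and 0.02 for all genes. Of the 20 other medium spiny neuron genes, Adora2a was called lower, from 18.3 to 26.5 FPKM after saline to 14.02 to 19.5 after ketamine (-0.42, adjusted p = 0.013), but not with own-set saline. Among oligodendrocyte markers, 3 of 10 were called higher with all saline libraries (Mobp and Ermn among them) and 5 of 10 with own-set saline. Those 5 included Mobp by 0.39 and Mbp by 0.32. The share of all genes called higher in these comparisons is not given, so the counts only describe the markers. With all saline libraries, 21% of all genes had an unadjusted p under 0.05 (limma). The summed level of the 10 oligodendrocyte markers was 768.5 to 850 FPKM in the ketamine libraries, 608 to 672 in saline set II and 726 to 834 in saline set I. That of the 11 cortical markers was 76.7 to 103 FPKM in the 4 ketamine libraries, 56.97 to 73.4 in saline set II and 78.0 to 101 in saline set I. The part of these cell types in the result was not tested.

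**Figure D3:**
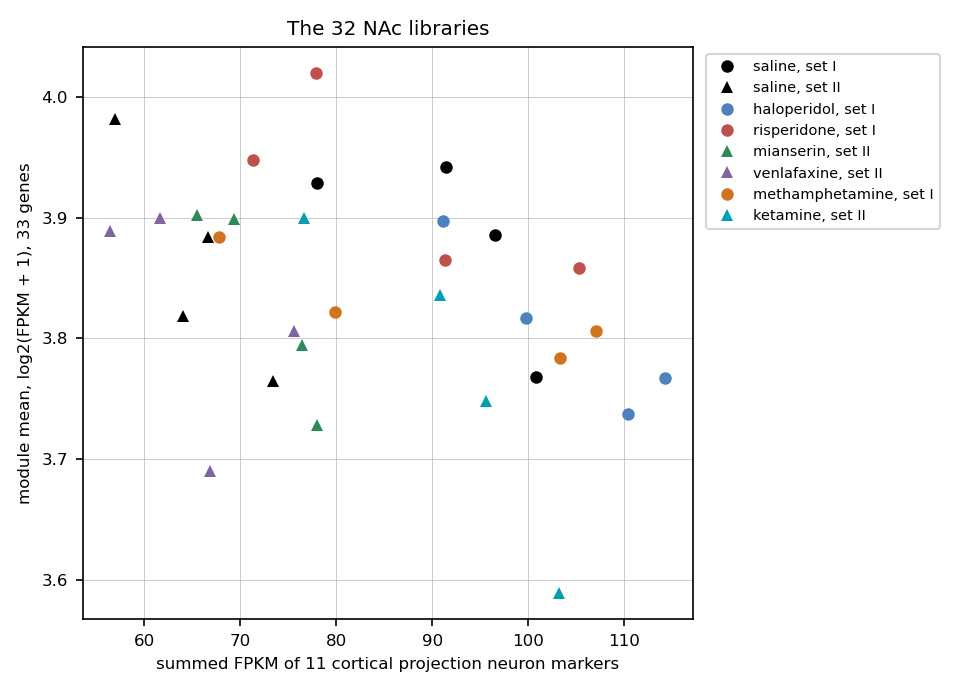
Mean of log2(FPKM + 1) over the 33 genes against the summed FPKM of 11 cortical projection neuron markers in the 32 NAc libraries, coloured by drug, with circles for sample set I and triangles for set II. The list runs from 3.59 to 4.02, with the lowest library a ketamine library, and the cortical markers run from 56.5 to 114 FPKM.

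Arpp21 was the only member called in the PFCx. It was 94.3 to 110 FPKM (median 103) after saline and 83.7, 80.0, 87.9 and 80.2 after risperidone, below all saline libraries, with a difference of -0.29 ± 0.05 (SE, adjusted p = 0.0028). After mianserin it was 81.6, 86.01, 89.8 and 94.5 FPKM, which overlapped saline by 1 library, with a difference of -0.21 ± 0.05 (SE, adjusted p = 0.044). The saline sets themselves differed, at 97.1 ± 3.31 FPKM in set I and 107 ± 2.92 in set II (SD, n = 4 each). Against its own set, risperidone was at -0.22 and was no longer called (adjusted p = 0.10), and mianserin was at -0.28 and was called (adjusted p = 0.0041). These comparisons called 0.0406% and 1.47% of all genes lower. The mianserin call held in all 32 fits that left out 1 library with own-set saline but was lost in 16 of 32 with all saline libraries (adjusted p up to 0.24), and it was lost without the 5 PFCx libraries described above (-0.21, adjusted p = 0.057). Methamphetamine lay below all saline libraries too, with a mean of 88.01 ± 3.55 FPKM (SD, n = 4), and was not called (-0.21, adjusted p = 0.069). In the NAc Arpp21 differed by 0.01 after risperidone and by 0.01 after mianserin.

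**Figure D4:**
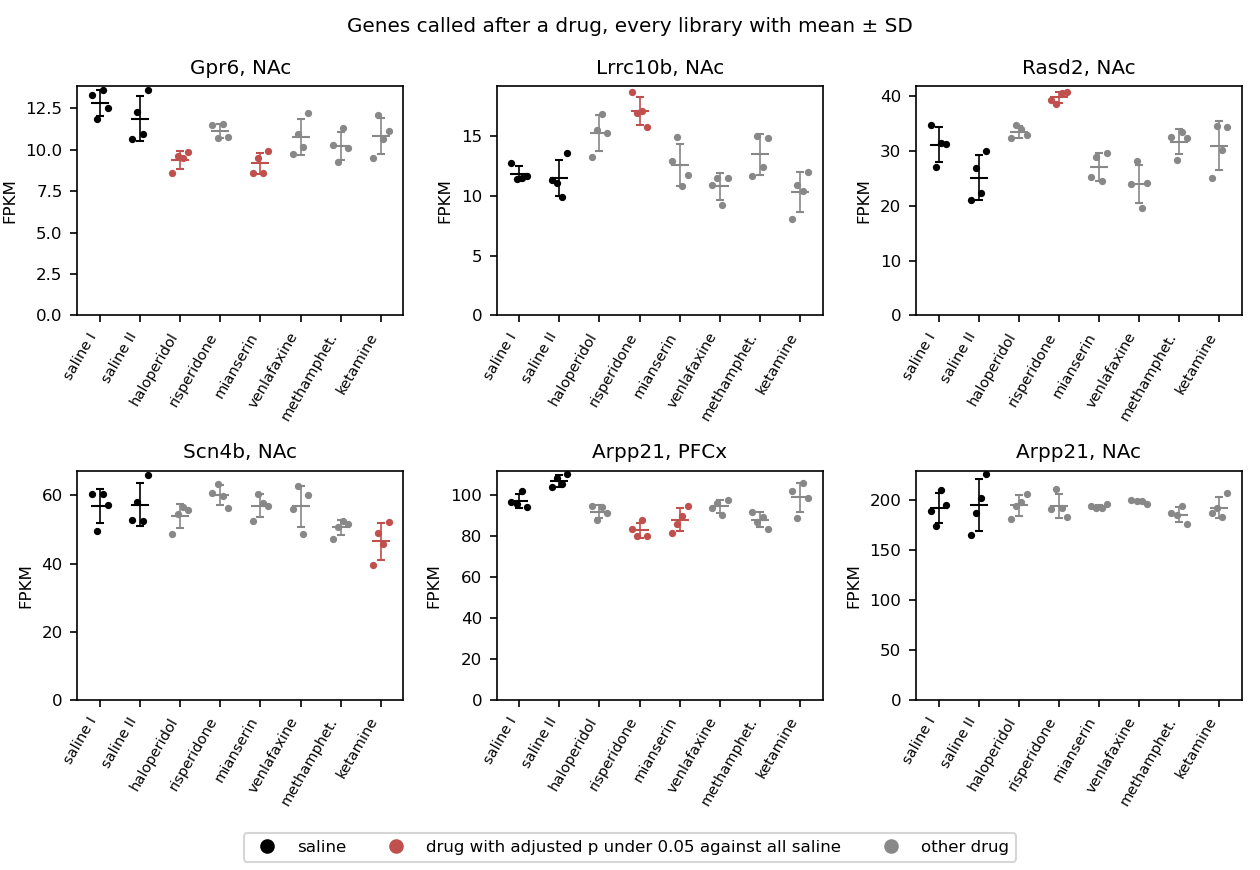
FPKM in every library, with the mean ± SD of each group, of Gpr6, Lrrc10b, Rasd2 and Scn4b in the NAc and of Arpp21 in the PFCx and the NAc. Groups called against all 8 saline libraries are red. Gpr6 after haloperidol and mianserin lies below all saline libraries, and Lrrc10b and Rasd2 after risperidone lie above them.

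Whether a drug acted differently in the 2 tissues was tested as an interaction. No member passed for any of the 6 drugs, with all saline libraries or with own-set saline (limma), and the ordinary t called none either. With all saline libraries, the number of members with an unadjusted p under 0.05 was 2 with haloperidol, 3 with risperidone, 2 with mianserin, 1 with venlafaxine, 2 with methamphetamine and 5 with ketamine. Of all genes, 9.23%, 8.86%, 14.1%, 13.8%, 8.08% and 17.9% had such a p in the same order, and 0.0406%, 0%, 0.119%, 0.0514%, 0% and 0.311% were called. The lowest adjusted p was 0.080, for Eya1 and ketamine. For Arpp21 and risperidone the difference of the effects was 0.30 ± 0.08 (SE, adjusted p = 0.29), so the PFCx result is not shown to be particular to that tissue.

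Over the whole list the drug differences were small beside those between the tissues. They ran from -0.39 to 0.52 (NAc) and from -0.41 to 0.35 (PFCx), with a median SE of 0.09 and 0.11, so that many of the smaller ones lay within the spread between libraries. Ppp1r1b, whose own SE was 0.14 in the NAc, had means of 173 ± 19.99 FPKM after haloperidol, 196 ± 14.6 after risperidone, 141 ± 28.6 after mianserin, 141 ± 20.1 after venlafaxine, 161 ± 15.7 after methamphetamine and 128 ± 28.4 after ketamine (SD, n = 4 each), against 163 ± 27.8 after saline (n = 8). None was called. The furthest was ketamine, at -0.35 (adjusted p = 0.15), which is larger than the called difference of Scn4b. Of the 20 other genes of these neurons, Tac1 was lower after venlafaxine in the NAc (-0.51, adjusted p = 0.048), but not with own-set saline, where the saline libraries had 45.8 to 64.1 FPKM and venlafaxine 30.9 to 57.9. In the PFCx 30 of 33 members had a negative difference after mianserin and 30 of 33 after venlafaxine, with medians of -0.11 and -0.10 and all-gene medians of -0.03 and -0.02. The saline libraries included 2 of the 5 high PFCx libraries, and those 2 groups included none. Haloperidol and methamphetamine included none either, and had 26 and 22 of 33 negative. Risperidone and ketamine, which included the others, had 11 and 18. With own-set saline 28 of 33 were negative after mianserin and 28 of 33 after venlafaxine. These counts are not given without the 5 high libraries, and the part of those libraries was not tested.

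**Figure D5:**
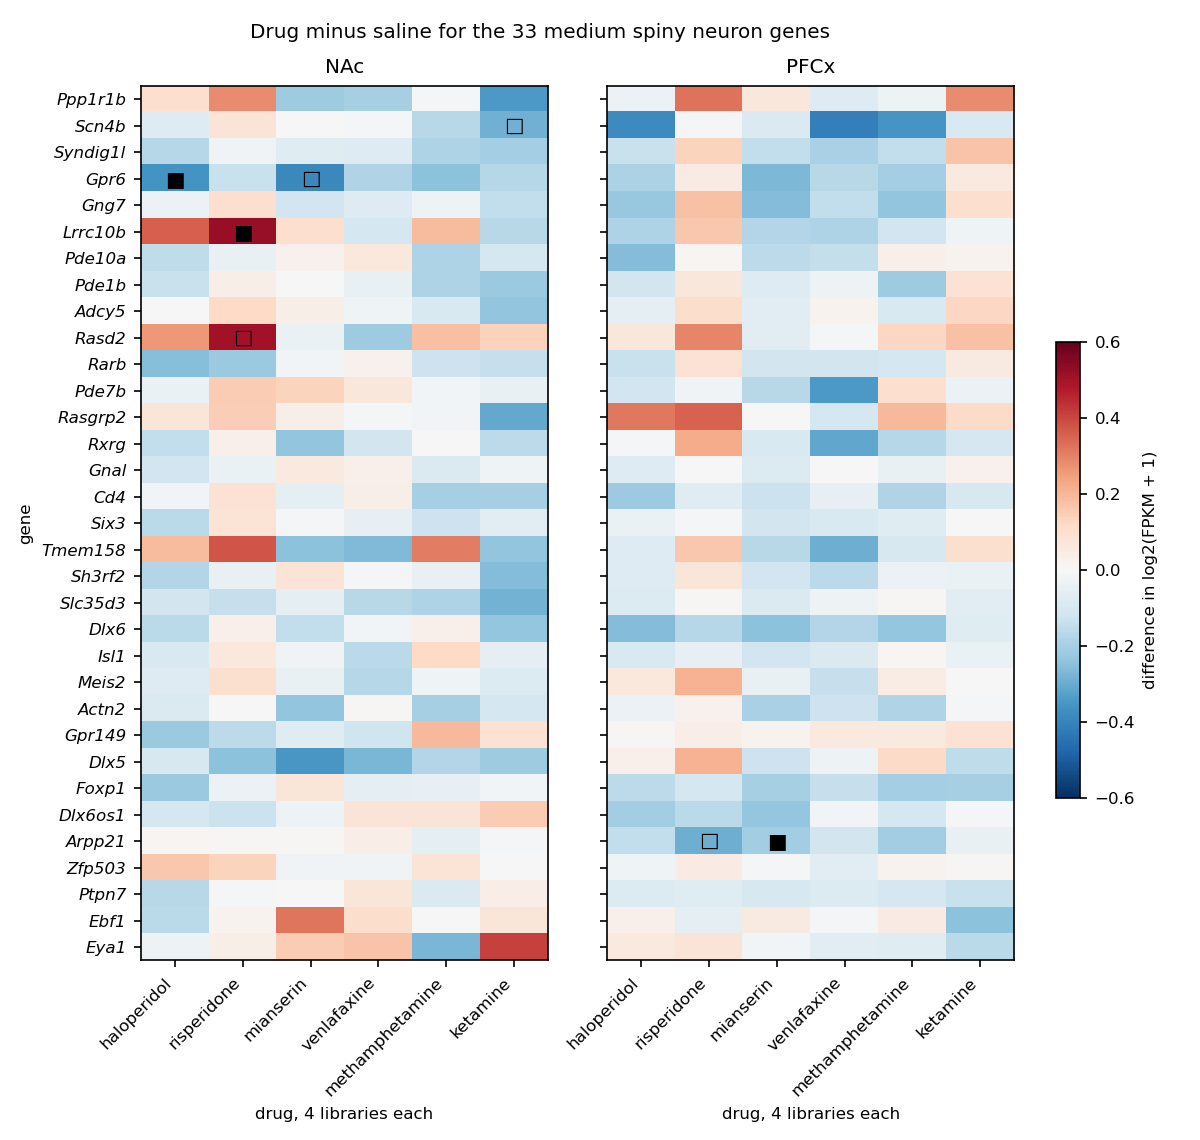
Heat map of the log2 difference from all 8 saline libraries for 33 genes, 6 drugs and both tissues. Filled squares mark pairs called with all saline libraries and with own-set saline, open squares those called with all saline libraries only. There are 7 squares among 396 cells, 5 in the NAc and 2 in the PFCx.

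At the level of single transcripts, 186 of the members' 207 annotated transcripts passed the same filter. Of these, 96 were higher in the NAc after saline and 15 lower, against 5.99% and 18.2% of the 86331 transcripts tested. The NAc libraries of saline set I, with fewer transcripts above 0, enter these shares too. How Cufflinks divides reads among overlapping transcripts adds error that the FPKM values do not show. Ppp1r1b was carried mainly by a transcript annotated as a retained intron (ENSMUST00000132443, 88.5 ± 18.7 FPKM in the NAc against 3.58 ± 2.04 in the PFCx) and by the protein-coding ENSMUST00000078694 (58.3 ± 13.96 and 3.32 ± 1.76, SD, n = 8 each). Both separated the tissues.

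Gnal had 2 protein-coding transcripts that went opposite ways. ENSMUST00000076605 was at 44.6 to 53.3 FPKM in the NAc (median 48.8) and 6.19 to 12.5 in the PFCx (median 7.69), a difference of 2.46. ENSMUST00000025402 was at 1.13 to 3.98 FPKM in the NAc (median 1.75) and 2.27 to 4.30 in the PFCx (median 3.76), a difference of -0.58 ± 0.14 (SE, adjusted p = 0.0017). The ranges of the second overlapped. The first made up most of the gene's level in both tissues.

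Arpp21 gave the clearest contrast between transcripts of 1 gene. Of its 30 transcripts tested, 6 were higher in the NAc and 10 were lower. The 6 higher ones all lay within chr9:112180972-112187949 (GRCm38, minus strand), a short stretch of a gene that spans chr9:112065091-112235938. The other gene known to overlap Arpp21 exons on the opposite strand, 2900079G21Rik, lies outside this stretch. The stretch was drawn from these 6, and it held 1 further transcript, which was not called. Of the 23 tested transcripts reaching beyond it, none was higher, 10 were lower and 13 were not called. The most abundant ones within it were ENSMUST00000162082 (50.5 ± 10.1 FPKM in the NAc against 10.3 ± 3.99 in the PFCx) and ENSMUST00000161467 (42.9 ± 7.41 against 10.9 ± 4.56, SD, n = 8 each). Summed, the 7 transcripts within it were at 126 to 192 FPKM (mean 154) in the NAc and 32.4 to 43.4 (mean 35.6) in the PFCx, while the 23 others were at 34.1 to 42.3 (mean 38.8) in the NAc and 61.5 to 73.4 (mean 66.4) in the PFCx. Because the stretch was drawn around transcripts called higher in these libraries, the sums are a description and the direction of the first was fixed by that choice. By annotated type, protein-coding transcripts summed to 18.1 ± 2.15 FPKM in the NAc and 29.1 ± 3.34 in the PFCx (SD, n = 8 each), and no protein-coding transcript was called higher in the NAc.

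The Arpp21 transcripts called after risperidone in the PFCx were ENSMUST00000159432 (-0.44, adjusted p = 0.0045), ENSMUST00000159667 (-0.51, adjusted p = 0.0095) and ENSMUST00000162050 (-0.37, adjusted p = 0.045), all reaching beyond the short stretch, where 0.0672% of all transcripts were called lower. Each was lost with own-set saline. The 23 transcripts beyond the stretch summed to 47.0 to 51.6 FPKM after risperidone, below the 61.5 to 73.4 after saline, while the 7 within it summed to 29.9 to 40.8, which overlapped the 32.4 to 43.4 after saline. The abundant ENSMUST00000161467 differed by -0.13 ± 0.32 and ENSMUST00000162082 by 0.39 ± 0.47 (SE). After mianserin the transcripts beyond the stretch summed to 51.5 to 62.0 FPKM, which overlapped saline, and those within it to 25.7 to 31.8 FPKM, below all saline libraries. These sums were not tested. With own-set saline 3 Arpp21 transcripts were lower after mianserin (0.67% of all transcripts were) and 1 after venlafaxine (0.175%). That 1, the protein-coding ENSMUST00000111872, differed between the controls themselves, at 1.42 to 4.42 FPKM in saline set II and at most 0.532 in saline set I, and reached at most 0.7075 after venlafaxine.

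Few other transcripts of the list were called. In the NAc, Gpr6 and Lrrc10b have 1 transcript each and repeated the result of the gene (0.0394% of all transcripts were lower after haloperidol, 0.167% lower after mianserin and 0.0985% higher after risperidone). The Lrrc10b transcript was lost with own-set saline (0.50, adjusted p = 0.096), while that of Gpr6 after haloperidol was not. In the same tissue the main transcript of Rasd2, ENSMUST00000139848, was at 0.48 after risperidone (adjusted p = 0.069). Pde10a ENSMUST00000115722 was 10.1 to 13.7 FPKM after saline and 7.56 to 9.38 after risperidone, with no overlap and a difference of -0.36 (adjusted p = 0.025, 0.0614% of transcripts lower), and was lost with own-set saline. Foxp1 ENSMUST00000177227 was 1.57 to 3.26 FPKM after saline and 0.559 to 1.63 after haloperidol (-0.79, adjusted p = 0.049). These ranges overlapped, and the call was lost with own-set saline. In the PFCx, Meis2 ENSMUST00000140461 was 1.40 to 1.72 FPKM after saline and 0.891 to 1.26 after mianserin (-0.31, adjusted p = 0.036, 0.174% of transcripts lower), and Meis2 ENSMUST00000110906 was 1.13 to 2.31 after saline and 0.294 to 0.732 after methamphetamine (-0.74, adjusted p = 0.027, 0.0185% of transcripts lower). Neither overlapped saline, and neither was called with own-set saline. Both are low transcripts of an abundant gene, and Meis2 summed over its transcripts was not called.

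Reads from opposite strands cannot be told apart, since the use of strand in counting is not stated. An exon overlapped by another gene was found for 10 of the 33 members, among them Ppp1r1b, Arpp21, Gnal, Rarb, Six3, Dlx6 and Foxp1, and Dlx6os1 sums 2 gene identifiers under 1 name.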

How the data were processed

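RNA of the NAc and PFCx was depleted of ribosomal RNA, made into libraries with the Ion Total RNA-seq Kit v2. The authors aligned the reads with TopHat2 (2.0.1) and then Tmap to mm10 and quantified Ensembl transcripts with Cufflinks (2.2.1). The deposited values are FPKM per transcript, and the deposited coverage column was used only to estimate depth. Groups came from the labels. FPKM values were summed per gene name, and log2(FPKM + 1) was tested with limma 3.58.1 (R 4.3.3) after a filter (mean FPKM of 0.1 or more in one tissue or the other) and called at an adjusted p under 0.05. The drug model had 7 groups per tissue. The members and the marker lists were chosen with earlier results of these data known. All members are named, and library values are given for Ppp1r1b, the 3 largest and 3 smallest tissue differences, the lowest p and each member called after a drug. On simulated data 174 of 200 genes changed by 1 log2 unit were recovered (haloperidol against saline in the NAc, 36989 genes), with 13 others called. The drug differences of the member genes given above were smaller, and the simulated noise was independent and held no sample sets. Recovery of changes of their size was not tested. Alternatives changed the pseudocount, filter, variance model, scaling, saline set, block and each library in turn. Leaving out the 5 high PFCx libraries, and own-set saline without 1 library, were chosen after seeing the data. Same-numbered libraries were not taken as pairs. Promoter windows (23 of 34 members matched) are from RefSeq. Figures used matplotlib 3.10.9.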

Additional observations from a re-analysis of the deposited data

Results flagged for a closer look

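Among 37 groups of libraries tested for a library far from the rest (chance alone gives about 1 in 20), 3 stood out, all in the PFCx after saline and all in replicate 4 of saline set II. Ppp1r1b was 22.1 FPKM there, against 5.68 to 10.4 in the other 7 saline libraries. Scn4b was 10.5 FPKM, against 1.46 to 3.45. Syndig1l was 2.58 FPKM, against 0.13 to 0.595.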

How the results depend on the processing

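The tissue calls were the most stable: leaving out each saline library gave 31 to 32 members higher and 1 to 1 lower, and 95 to 98 transcripts higher and 14 to 17 lower. Ebf1 turned to -0.055 with saline set I only, and 0 members were lower with saline set II only. The drug calls depended on the saline libraries. With own-set saline the number of members called in the NAc became 1 after risperidone, 0 after mianserin and 0 after ketamine, and 0 in the PFCx after risperidone. With saline set I only it was 0, 5, 4 and 8 in the NAc after risperidone, mianserin, venlafaxine and ketamine, and 0 and 0 in the PFCx after risperidone and mianserin. With saline set II only it was 8, 4, 0, 4 and 0 in the NAc after haloperidol, risperidone, mianserin, methamphetamine and ketamine, and 2, 3 and 1 in the PFCx after haloperidol, risperidone and methamphetamine. In the NAc after haloperidol, 2 members were called with a mean FPKM of at least 1 and 2 after rescaling to the 75th percentile, and after ketamine 0 with a pseudocount of 0.1. In the PFCx after mianserin the count was 0 with a pseudocount of 0.1, with a mean-variance trend, after rescaling and without the 5 high libraries, and after methamphetamine it was 1 with the ordinary t. The pairs of a transcript and a drug called (5 in each tissue) became, in the NAc, 0 with a pseudocount of 0.1, 2 with own-set saline, 30 with set I only and 31 with set II only, and in the PFCx 1, 3 and 3 with a pseudocount of 0.1, a trend and rescaling, 1 with set I only, 22 with set II only and 1 without the 5 high libraries. With own-set saline 1 transcript (Arpp21 ENSMUST00000111872, venlafaxine, 1.86) differed in its effect between the tissues. With saline set I only, mianserin, venlafaxine and ketamine were compared with saline of the other set. With saline set II only, the same held for haloperidol, risperidone and methamphetamine. Drug and set cannot be told apart there. The shares of all genes and transcripts called with a single saline set or other settings are not given, apart from the own-set shares above. They are also not given for the fits below without 1 library or with a replicate block. The counts under these alternatives are therefore not a result about the list. The cause of the changes in these counts was not tested.

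Leaving out 1 library gave 1 to 3 members after haloperidol, 1 to 3 after risperidone, 1 to 1 after mianserin and 0 to 3 after ketamine in the NAc, 1 to 1 after risperidone, 0 to 1 after mianserin and 0 to 1 after methamphetamine in the PFCx, 0 to 1 for the difference of the ketamine effect between the tissues, and 2 to 6 transcript pairs in each tissue. The mean over the list after saline was 3.86 to 3.89 in the NAc and 1.87 to 1.95 in the PFCx. It was 3.63 and 1.12 with a pseudocount of 0.1, and 3.75 and 1.60 as a median over the members.

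The replicate numbers do not pair the libraries by any stated source. Deviations of same-numbered libraries had a mean correlation of 0.098 in the NAc (63 of 112 pairs over 0.1) and 0.105 in the PFCx (48 of 112). A replicate block gave 31 members higher and 1 lower between the tissues and left the drug counts at 1, 2, 1, 0, 0 and 1 (NAc) and 0, 1, 1, 0, 0 and 0 (PFCx) in the order haloperidol, risperidone, mianserin, venlafaxine, methamphetamine and ketamine. Own-set saline with the block gave 1 after methamphetamine and 2 after ketamine in the NAc, 0 after risperidone and 1 after ketamine in the PFCx, and 8 transcript pairs in the PFCx. Depth is known only as an estimate, and FPKM near 0 carry no error of their own.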
